A study of Danio rerio with 18 samples.

Results

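The genes described here are junba, junbb, fosab, egr1 and ier5l, 5 immediate early response genes of the zebrafish. They were found by the gene symbol that the array annotation gives to each probe set, and every probe set with one of these symbols was kept. This gave 5 of the 8793 genes named on the array and 9 of the 15502 probe sets tested: 1 probe set each for junba, junbb and ier5l, 2 for egr1 and 4 for fosab. RNA came from AB strain zebrafish at 52 hours post fertilization (hpf), in 6 groups of 3 arrays. Wild-type fish and young (smarca4) mutants each gave 3 kinds of sample: the whole embryo, the bare retina, and the retina to which the RPE still adhered (the retinal pigment epithelium, a pigmented sheet behind the photoreceptors). Each array carried 1 pool, of 10 embryos or tissues as a rule, of 9 for the second mutant retina array and of 6 for the 3 mutant arrays with RPE. The stage of the mutants was read from wild-type siblings. The RPE-attached pools contain the retina too, and they were compared with bare retina directly.

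Immediate early genes are transcribed within minutes of a stimulus such as a growth factor, neural activity, light or injury, before any new protein has to be made. junba and junbb encode Jun proteins and fosab a Fos protein; Jun and Fos subunits pair to form the transcription factor AP-1. egr1 encodes a zinc finger transcription factor switched on through the ERK kinase route and serum response factor, and in the vertebrate retina it is known as a marker of recent activity in inner retinal neurons. ier5l belongs to the immediate early response 5 family, whose best known mammalian relative, IER5, takes part in the heat shock response. The mutated gene, smarca4 (smarca4a in the present gene table), encodes the ATPase of the SWI/SNF chromatin remodelling complex, which moves nucleosomes.

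The values are log2 signals after robust multiarray averaging, so a difference of 1 is a doubling. Values of one probe set can be compared between arrays, but not with those of another probe set, since each binds its target differently. A difference was called at an adjusted p under 0.05 in limma, with Benjamini-Hochberg adjustment over all 15502 probe sets. A log2 signal of 5.15, the 30th percentile of all group means, served as the low level, and no fold is given where the lower group lay under it. The 3 pools of a group are labelled as biological replicates. The p-values and standard errors rest on 1 moderated spread between pools per probe set, shared by all 6 groups. The main fit did not use the replicate numbers.

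The labels were borne out by the genes that mark them. Both smarca4a probe sets were lower in mutants in all 3 tissues, with log2 differences of -2.26 in bare retina, -1.64 with RPE and -2.43 in the embryo for the probe set with the larger change. The 9 retina markers on the array averaged 9.13 in wild-type and 9.04 in mutant retina against 7.20 in wild-type embryos. The 6 RPE and melanin markers averaged 6.22 in wild-type and 6.57 in mutant bare retina and rose to 8.45 and 8.86 where RPE was attached. Skeletal muscle markers averaged 13.02 in wild-type embryos and 5.54 to 5.94 in the eye groups. The mutant RPE-attached arrays stood apart in their technical controls: the hybridization controls averaged 11.33 there and 9.66 to 9.97 in the other groups, and the median SD between replicates was 0.175 against 0.111 to 0.123.

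Each of the genes had its own pattern, as the plot of all 9 probe sets by array shows. junba was high in wild-type retina, bare or with RPE, and low in wild-type embryos and in every mutant group. ier5l was higher in mutants in all 3 tissues by a similar amount. By 2 of its 4 probe sets fosab was lower in wild-type retina with RPE than without, and the same difference was not called in mutants. junbb was called higher in mutants where RPE was attached, and egr1 lay near or under the low level in most groups. In mutant against wild-type retina, 2 of the 9 probe sets were called, 1 higher and 1 lower, against 18.3% of all probe sets, 8.88% higher and 9.41% lower. In RPE-attached retina 6 were called, 5 higher and 1 lower, against 46.9% of all probe sets, 26.7% higher and 20.2% lower. In whole embryo 1 was called, and it was higher, against 6.73% of all probe sets, 3.39% higher and 3.34% lower.

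**Figure D1:**
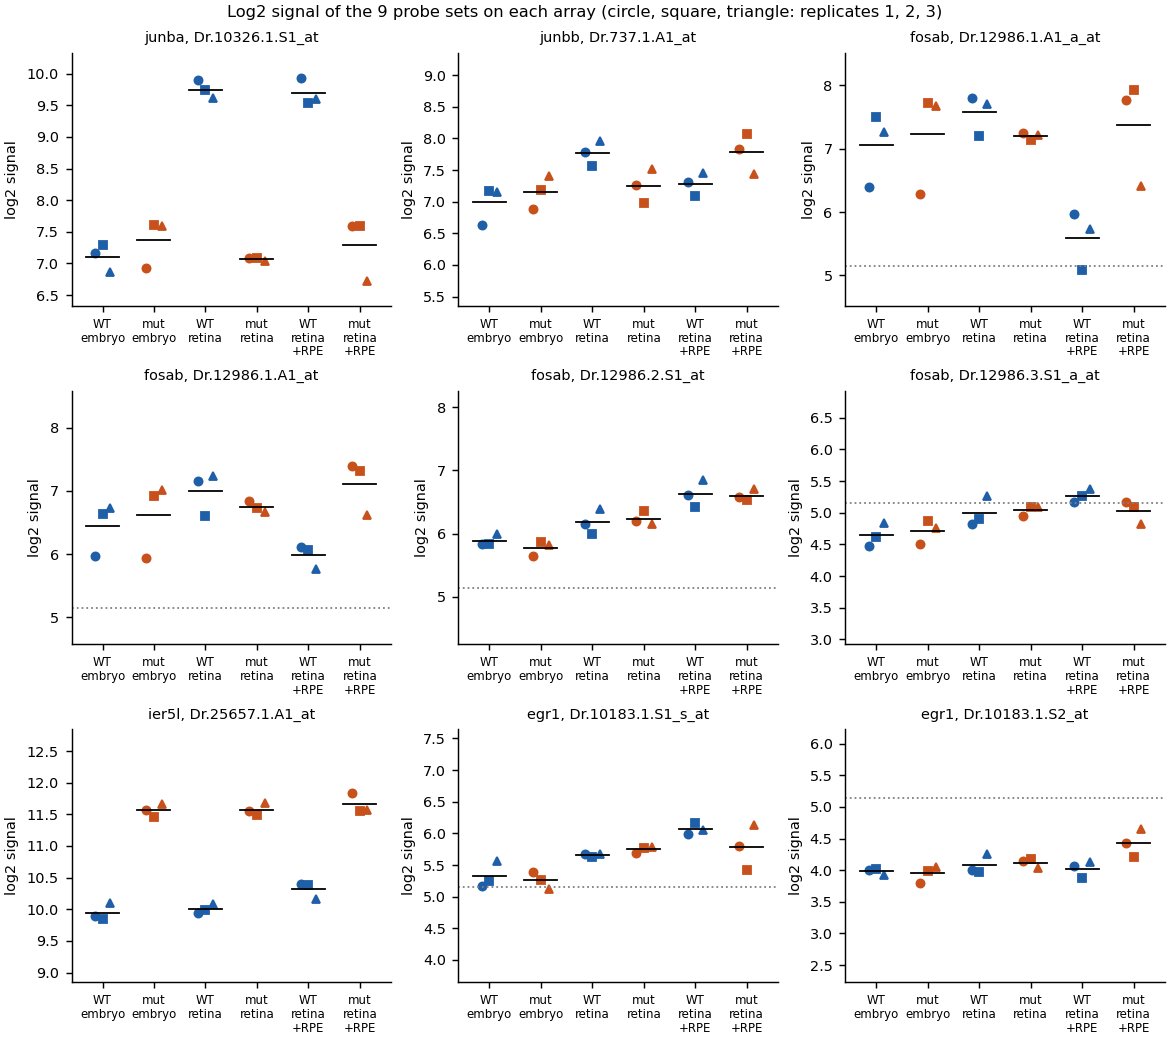
Log2 signal (vertical axes, each 4 log2 units tall but placed at its own level) of the 9 probe sets on each of the 18 arrays, by group (horizontal axes); blue points are wild type, orange points mutant, circles, squares and triangles replicates 1, 2 and 3, bars group means, and the dotted line the low level of 5.15. For junba the 6 wild-type eye arrays lie between 9.54 and 9.93 and the mutant eye arrays between 6.72 and 7.59, and for ier5l all mutant arrays lie above all wild-type arrays.

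**Figure D2:**
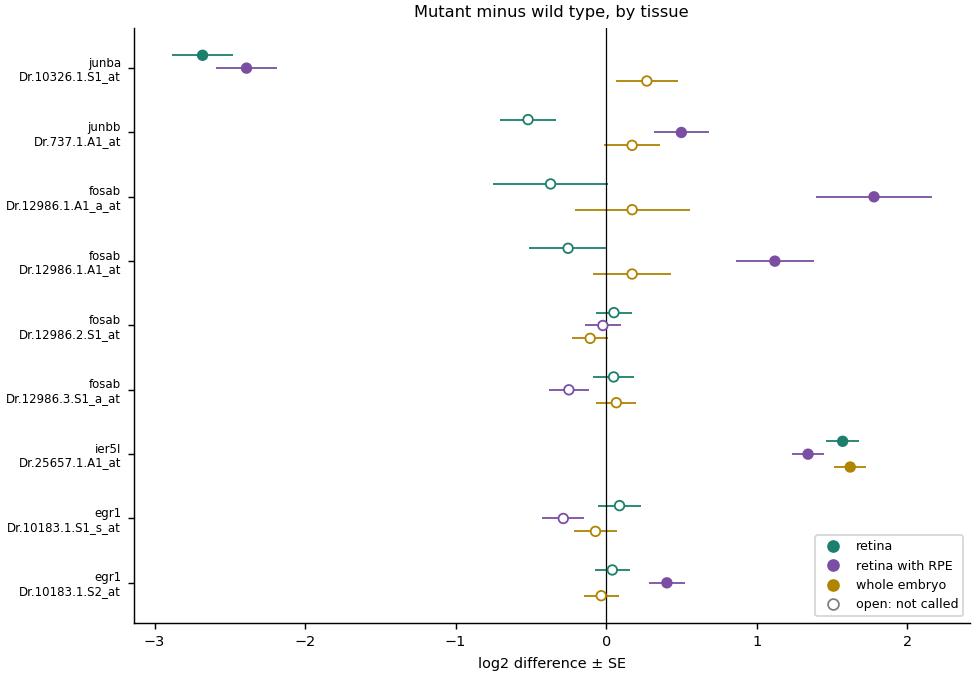
Mutant minus wild-type log2 difference with its standard error (horizontal axis) for each probe set (vertical axis) in retina, RPE-attached retina and whole embryo; filled points have an adjusted p under 0.05. junba lies at -2.68 and -2.39 in the eye samples and at 0.27 in whole embryo, while ier5l lies between 1.34 and 1.62 in all 3 tissues.

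junba, a Jun family subunit of AP-1 that in mammals can restrain the activity of Jun, was lower in the mutant eye, while its difference in the mutant embryo was not called. Its probe set, Dr.10326.1.S1_at, read 9.89, 9.74 and 9.61 in wild-type retina and 7.08, 7.08 and 7.04 in mutant retina. The groups do not overlap, and the mutant arrays lie close together. The difference was -2.68 ± 0.21 (SE, n = 3 against 3), 6.41-fold lower (limma adjusted p = 7.07e-09). It was the 8th lowest difference of the 8793 genes. With RPE attached, wild type read 9.93, 9.54 and 9.59 and mutants read 7.59, 7.59 and 6.72. Again the groups do not overlap, although the third mutant array lies well below the other two. The difference was -2.39 ± 0.21, 5.24-fold lower (adjusted p = 2.41e-08), and it lay between -2.54 and -2.10 under every alternative run, including the one without that array.

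In whole embryos junba read 7.17, 7.29 and 6.86 in wild type and 6.93, 7.61 and 7.60 in mutants, and the groups overlap. The difference of 0.27 had a 95% interval of -0.16 to 0.70 and was not called (adjusted p = 0.651). The difference between the genotype effects in retina and whole embryo was itself -2.95 ± 0.29 (adjusted p = 1.33e-06), the lowest of the 8793 genes. This interaction was called for 6.88% of all probe sets, 2.41% higher and 4.47% lower, and of the 9 described here junba was the 1 called. Among wild types the retina lay above the embryo by 2.64 ± 0.21, 6.24-fold (adjusted p = 1.00e-09), the 23rd highest of 8793 genes. In mutants retina minus embryo was -0.31 (adjusted p = 0.180; 95% interval -0.74 to 0.12). Without mutant embryo replicate 1 this became -0.54 and was called (adjusted p = 0.0282).

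junba was not called between RPE-attached and bare retina: the difference was -0.06 in wild type (adjusted p = 0.863; 95% interval -0.49 to 0.37) and 0.23 in mutants (adjusted p = 0.379; 95% interval -0.20 to 0.66). The mutant value became 0.53 and was called without mutant RPE-attached replicate 3 (adjusted p = 0.0292). In order of level the groups were mutant retina at 7.07, wild-type embryo at 7.11, mutant RPE-attached retina at 7.30, mutant embryo at 7.38, wild-type RPE-attached retina at 9.69 and wild-type retina at 9.75. Neighbours in this order overlap, except across the step of 2.31 between mutant embryo and wild-type RPE-attached retina.

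A list of 30 genes of ganglion and amacrine cells, which are inner retinal neurons, was also lower in the mutant eye. Its differences between retina and embryo are given here beside those of junba. All 20 of these genes on the array were called lower in mutant retina, with a median of -1.44. In RPE-attached retina 18 of 20 were called lower, with a median of -1.29. Of all genes 9.5% and 21.3% were called lower in these comparisons. Their mean level was 9.24 in wild-type and 7.56 in mutant retina, with array ranges of 9.22 to 9.26 and 7.53 to 7.62. In embryos it was 8.78 in wild type and 8.34 in mutants. Mutant retina against mutant embryo had 13 of 20 called lower and 3 higher (median -0.84), where junba was not called. Over all probe sets 21.7% were lower and 47.8% higher there. Wild-type retina against embryo had 12 higher and 3 lower (median 0.59), where junba was called higher at 2.64. There 44.5% of all probe sets were higher and 19.6% lower. In mutant against wild-type whole embryos 6 of 20 were called lower, with a median of -0.39, against 3.66% of all genes. In every group 1 of the 20 lay under the low level. That list was put together with earlier results of these data known and after the junba values were seen, so its counts are description only. The part of these cells in the junba difference was not tested. The 3' minus 5' difference of the gapdh control, a sign of RNA quality, averaged 3.08 ± 0.13 (SD, n = 3) in wild-type and 2.83 ± 0.13 in mutant retina, 2.82 ± 0.18 and 2.58 ± 0.034 with RPE, and 3.24 ± 0.20 and 3.22 ± 0.092 in embryo. Its part was not tested either. In bulk tissue such as this, fewer cells of a type and less RNA per cell cannot be told apart.

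junbb, the second JunB gene of the zebrafish, was higher in wild-type retina than in wild-type embryo, and its genotype difference differed between retina with and without RPE. Its probe set, Dr.737.1.A1_at, read 7.78, 7.57 and 7.96 in wild-type retina and 7.27, 6.98 and 7.51 in mutant retina. The groups do not overlap, but the difference of -0.52 ± 0.19 missed the threshold (adjusted p = 0.0588). It was called when the replicate number entered the fit of the 12 arrays without RPE as a replicate block (adjusted p = 0.00608). It was also called without wild-type retina replicate 2 (adjusted p = 0.0466) or mutant retina replicate 3 (adjusted p = 0.0337). Within the same number the mutant was lower by 0.51, 0.59 and 0.45. In RPE-attached retina wild type read 7.31, 7.08 and 7.45 and mutants read 7.84, 8.07 and 7.44. Here the third mutant array overlaps the wild type. The difference was 0.50 ± 0.19, 1.41-fold higher (adjusted p = 0.0328), and it was lost when wild-type replicate 1 or 2 or mutant replicate 1 or 2 was left out (adjusted p = 0.0629 to 0.160).

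The difference between the junbb genotype effects with and without RPE was 1.02 ± 0.26 (adjusted p = 0.0102). Of the 9 probe sets 3 were called in this interaction, all higher, against 20.2% of all probe sets, 11.6% higher and 8.61% lower, and junbb ranked 154th from the highest of 8793 genes. RPE-attached minus bare retina was -0.49 in wild type (adjusted p = 0.0529) and 0.53 in mutants (adjusted p = 0.0286). The wild-type value was called under 6 of 14 alternatives, among them without wild-type retina replicate 2 (-0.59, adjusted p = 0.0439). The mutant value was called under 7 of 14 and lost its call without mutant retina replicate 1 or 2 or RPE-attached replicate 1 or 2 (adjusted p = 0.0609 to 0.138). In embryos junbb read 6.63, 7.18 and 7.16 in wild type and 6.89, 7.18 and 7.41 in mutants, which overlap. That difference of 0.17 was not called (adjusted p = 0.825). Wild-type retina exceeded wild-type embryo by 0.78 ± 0.19, 1.72-fold (adjusted p = 0.00118), while the mutant tissues differed by 0.09 (adjusted p = 0.663). The retina minus embryo difference of the genotype effects was -0.69 (adjusted p = 0.148, and 0.0178 with the replicate block). junbb lies on the same chromosome as smarca4a in the gene table, and the other 4 genes do not. An effect of the mutation and one of alleles carried along with it cannot be told apart for junbb. For the other 4 genes the part of such alleles was not tested.

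fosab, the zebrafish counterpart of FOS, was lower by 2 probe sets in wild-type retina with RPE than in bare wild-type retina, and this difference was larger than in mutants. The probe set Dr.12986.1.A1_a_at read 7.80, 7.20 and 7.71 in bare wild-type retina and 5.96, 5.09 and 5.73 with RPE. The groups do not overlap. The difference was -1.98 ± 0.38, 3.94-fold lower (adjusted p = 0.000787), the lowest of all 8793 genes in this comparison. The comparison called 5 of the 9 probe sets, 3 higher and 2 lower, against 29.2% of all probe sets, 15.2% higher and 14% lower. In mutants the probe set read 7.25, 7.14 and 7.22 in bare retina and 7.77, 7.94 and 6.41 with RPE. These groups overlap, because the third RPE-attached array lies below all bare retina arrays and the other two above them. The difference was 0.17 (adjusted p = 0.749; 95% interval -0.63 to 0.97).

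Mutant RPE-attached retina lay above wild type by 1.78 ± 0.38, 3.43-fold (adjusted p = 0.000815), with no overlap between groups. This was the 34th highest of 8793 genes. The call held under all 14 alternatives run, with differences of 1.498 to 2.26. In bare retina the genotype difference was -0.37 (adjusted p = 0.631; 95% interval -1.17 to 0.43). The difference between these effects was 2.15 ± 0.54 (adjusted p = 0.00905), the 3rd highest of 8793 genes.

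The probe set Dr.12986.1.A1_at was lower with RPE in wild type and higher in mutants than in wild type with RPE, both by less. It read 7.16, 6.60 and 7.23 in bare wild-type retina and 6.12, 6.07 and 5.76 with RPE, a difference of -1.01 ± 0.26, 2.02-fold lower (adjusted p = 0.00626). In mutants it read 6.84, 6.73 and 6.66 in bare retina and 7.39, 7.31 and 6.62 with RPE. Mutant RPE-attached retina lay above wild type by 1.12 ± 0.26, 2.17-fold (adjusted p = 0.00145), with no overlap. The difference of the genotype effects was 1.37 ± 0.36 (adjusted p = 0.0122).

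The other 2 fosab probe sets disagree with these. Dr.12986.2.S1_at read 6.16, 6.001 and 6.39 in bare wild-type retina and 6.60, 6.42 and 6.85 with RPE, which is higher by 0.44 ± 0.12 (adjusted p = 0.00988) and not lower. In mutants it was higher with RPE by 0.37 ± 0.12 (adjusted p = 0.0208), and between genotypes with RPE it differed by -0.02 (95% interval -0.27 to 0.23). The wild-type call was lost without wild-type retina replicate 2 (adjusted p = 0.0595) or RPE-attached replicate 3 (adjusted p = 0.0710). The mutant call was lost without mutant retina replicate 1 or 3 or RPE-attached replicate 3 (adjusted p = 0.0601 to 0.0787). Dr.12986.3.S1_a_at lay between 4.47 and 5.37 on all 18 arrays, near or under the low level. Its values with RPE were 0.28 above bare retina in wild type (adjusted p = 0.129) and -0.02 in mutants (adjusted p = 0.911). The lower fosab signal with RPE thus rests on 2 of the 4 probe sets annotated to the gene. Those 2 carry the same cluster number, 12986.1, and are not independent measures.

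Some controls and markers differed between the groups of the fosab comparisons. The poly-A control probe sets averaged 5.58 in wild-type RPE-attached retina, 4.62 in mutant RPE-attached retina and 4.66 to 4.98 elsewhere. The reporter and tag controls, which have no target in zebrafish, averaged 5.15, 5.36 and 4.69 to 5.08 in the same order. The poly-A averages thus lay under these controls in every group but wild-type RPE-attached retina. The 3 vessel markers on the array averaged 6.58 in wild-type and 7.17 in mutant RPE-attached retina, with array ranges of 6.58 to 6.58 and 7.07 to 7.25, and none lay under the low level. The 5 erythrocyte markers averaged 7.16 and 7.73 in the same groups, with ranges of 7.11 to 7.23 and 7.69 to 7.77. Leukocyte markers averaged 6.16 and 6.29 over 7 genes, and RPE and melanin markers 8.45 and 8.86 over 6 genes. Between RPE-attached and bare wild-type retina, where fosab was lower, 15.2% of all probe sets were called higher. All 3 vessel markers (median 0.48) and all 6 RPE and melanin markers (median 2.38) were called higher there. So were 4 of 5 neural crest and xanthophore markers (median 0.76) and 4 of 7 leukocyte markers (median 0.38). Of the muscle markers 1 of 6 was called higher, and of the epidermis and cornea markers 1 of 7. None of the 5 erythrocyte markers was called (median 0.02). Of the 9 retina markers 1 was called higher and 3 lower (median 0.03). Of the 20 ganglion and amacrine cell genes 7 were called lower (median -0.15). Over all probe sets 14% were called lower there. The part of these in the fosab and junbb differences was not tested.

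In whole embryos the fosab probe set Dr.12986.1.A1_a_at varied between pools more than between genotypes. It read 6.39, 7.51 and 7.26 in wild type and 6.28, 7.72 and 7.67 in mutants. In both genotypes replicate 1 lies well below the others. The hybridization controls of these replicate 1 arrays averaged 10.46 and 10.35, against 9.39 to 9.58 on the other embryo arrays. They averaged 10.43 and 10.60 on the replicate 1 arrays of bare wild-type and mutant retina. There the probe set read 7.80 and 7.25, the highest of each group. The part of these controls was not tested. The genotype difference was 0.17 (adjusted p = 0.952; 95% interval -0.63 to 0.97). Wild-type retina minus embryo was 0.52 for this probe set (adjusted p = 0.235) and 0.55 for Dr.12986.1.A1_at (adjusted p = 0.0677, and 0.0364 with the replicate block). By level Dr.12986.1.A1_a_at ran from 5.59 in wild-type RPE-attached retina to 7.05 in wild-type embryo, 7.20 in mutant retina, 7.23 in mutant embryo, 7.37 in mutant RPE-attached retina and 7.57 in wild-type retina. The upper 5 groups each overlap their neighbours in this order.

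**Figure D3:**
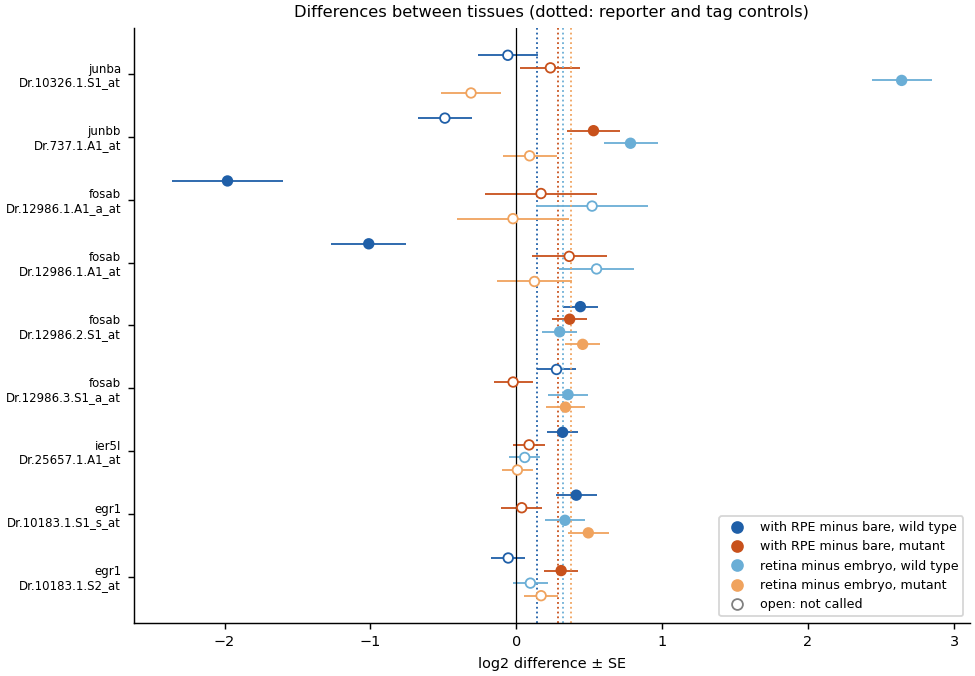
Log2 difference with its standard error (horizontal axis) of each probe set (vertical axis) between RPE-attached and bare retina and between retina and whole embryo, in each genotype; filled points have an adjusted p under 0.05, and dotted lines mark the mean difference of the 20 reporter and tag control probe sets in the comparison of the same colour. The first 2 fosab probe sets lie at -1.98 and -1.01 in wild type with RPE, junba lies at 2.64 in wild-type retina against embryo.

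egr1 was measured near the low end of the array's range, and neither probe set was called between genotypes in bare retina or in embryo. Dr.10183.1.S1_s_at, which by its suffix may match more than 1 transcript, read 5.68, 5.62 and 5.68 in wild-type retina and 5.69, 5.77 and 5.78 in mutant retina. The groups lie next to each other without overlap, and the difference of 0.09 was not called (adjusted p = 0.784; 95% interval -0.20 to 0.38). With RPE it read 5.996, 6.17 and 6.05 in wild type and 5.80, 5.43 and 6.13 in mutants, which overlap, a difference of -0.28 (adjusted p = 0.102). Without the third mutant array this was -0.46 and was called (adjusted p = 0.00822). In embryos it read 5.17, 5.24 and 5.57 in wild type and 5.38, 5.26 and 5.12 in mutants, with a difference of -0.07 (adjusted p = 0.946).

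Between tissues this egr1 probe set was higher in wild-type RPE-attached than bare retina by 0.41 ± 0.14 (adjusted p = 0.0326), a call lost without any of the wild-type retina arrays or RPE-attached replicate 2 or 3 (adjusted p = 0.0617 to 0.109). It was also lost with quantile normalization applied again (0.30, adjusted p = 0.125) and with array medians subtracted (0.34, adjusted p = 0.0789). It was higher in retina than embryo by 0.33 in wild type (adjusted p = 0.0438) and by 0.49 in mutants (adjusted p = 0.00436). Dr.10183.1.S2_at stayed between 3.80 and 4.65 on all 18 arrays, under the low level. It was called higher in mutant RPE-attached retina by 0.40 ± 0.12 (adjusted p = 0.00847), where wild type read 4.06, 3.88 and 4.13 and mutants 4.42, 4.20 and 4.65, and the call was lost without the third mutant array (0.29, adjusted p = 0.0542). By level the first probe set ran from 5.26 in mutant embryo to 5.33 in wild-type embryo, 5.66 in wild-type retina, 5.75 in mutant retina, 5.79 in mutant RPE-attached retina and 6.07 in wild-type RPE-attached retina.

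Probe sets with no target in zebrafish also differed between the groups. The 20 reporter and tag control probe sets averaged 4.69 and 4.70 in wild-type and mutant embryos, 5.01 and 5.08 in retinas and 5.15 and 5.36 in RPE-attached retinas. Retina lay above embryo in these controls by 0.32 in wild type and 0.38 in mutants, RPE-attached above bare retina by 0.14 and 0.28, and mutant above wild type with RPE by 0.21. In that last comparison egr1 Dr.10183.1.S2_at was called higher by 0.40, and the part of the control shift in this call was not tested. Wild-type retina against embryo called 5 of the 9 probe sets, all higher, against 64.1% of all probe sets, 44.5% higher and 19.6% lower. The mutant comparison called 3, all higher, against 69.6% of all probe sets, 47.8% higher and 21.7% lower. The median of all genes was 0.26 and 0.27 in these comparisons. Called in both genotypes were fosab Dr.12986.2.S1_at at 0.30 in wild type and 0.45 in mutants, fosab Dr.12986.3.S1_a_at at 0.35 and 0.34, and egr1 Dr.10183.1.S1_s_at at 0.33 and 0.49. In wild type these calls were lost when single arrays were left out: 4 arrays for the first (embryo replicate 1 or 2, retina replicate 1 or 3), 3 for the second (embryo replicate 1 or 2, retina replicate 3) and 5 for egr1 (embryo replicate 1 or 2, any retina replicate). In mutants the second was lost without embryo replicate 1 or retina replicate 2 or 3 (adjusted p = 0.0826 to 0.161). The part of the control shift in these was not tested. junba at 2.64 and junbb at 0.78 were called in wild type only, and the part of the control shift in these 2 genes was not tested either. Mutant RPE-attached against bare retina called 3, all higher, against 40.3% of all probe sets, 23.9% higher and 16.3% lower. They were junbb at 0.53, fosab Dr.12986.2.S1_at at 0.37 and egr1 Dr.10183.1.S2_at at 0.31 (limma adjusted p = 0.0437 for egr1). This egr1 probe set lay under the low level, and its call was kept under 3 of 13 alternatives.

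ier5l, of the immediate early response 5 family, was higher in mutants in every tissue. Its probe set, Dr.25657.1.A1_at, read 9.94, 9.98 and 10.08 in wild-type retina and 11.55, 11.49 and 11.68 in mutant retina. The groups lie far apart. The difference was 1.57 ± 0.11, 2.97-fold (adjusted p = 1.57e-09), the 28th highest of 8793 genes. In whole embryos wild type read 9.89, 9.85 and 10.09 and mutants read 11.57, 11.46 and 11.66. This difference of 1.62 ± 0.11, 3.08-fold (adjusted p = 5.90e-09), was the 6th highest of 8793 genes. With RPE attached wild type read 10.40, 10.38 and 10.17 and mutants read 11.84, 11.56 and 11.57. The difference was 1.34 ± 0.11, 2.53-fold (adjusted p = 9.94e-09), the 119th highest of 8793 genes. No mutant array overlapped a wild-type array in any tissue, and all 3 differences were called under every alternative run.

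The ier5l effect was not shown to differ between tissues. Retina minus embryo was -0.05 ± 0.15 (adjusted p = 0.968; 95% interval -0.37 to 0.27), and RPE-attached minus bare retina was -0.23 ± 0.15 (adjusted p = 0.306; 95% interval -0.55 to 0.09). Within a genotype, retina and embryo differed by 0.06 in wild type (95% interval -0.17 to 0.28) and 0.01 in mutants (95% interval -0.22 to 0.23). RPE added 0.32 ± 0.11 in wild type (adjusted p = 0.0321), a call that was lost with array medians subtracted (0.24, adjusted p = 0.105) and without wild-type retina replicate 1 or 2 or RPE-attached replicate 1 or 2 (adjusted p = 0.0786 to 0.108). By level the groups ran from 9.94 in wild-type embryo through 10.0004 in wild-type retina and 10.32 in wild-type RPE-attached retina to 11.56, 11.57 and 11.66 in mutant embryo, retina and RPE-attached retina. The 3 mutant groups overlap each other.

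Other genes of these pathways were counted from 4 lists, each gene by its brightest probe set. In mutant against wild-type retina 19.6% of all genes were called, 10.1% higher and 9.5% lower, with a median of 0.04. Of 7 other AP-1 genes 2 were higher and 1 lower, with a median of 0.15. Of 33 other immediate early transcription factors 7 were higher and 3 lower (median 0.02), and of 43 other rapid response genes 9 were higher and 3 lower (median 0.07). Of 25 genes of the ERK and serum response factor route 3 were higher and 1 lower (median 0.04). With the replicate block this last count became 7 higher and 2 lower. In RPE-attached retina 49.5% of all genes were called, 28.2% higher and 21.3% lower, with a median of 0.06. There 4 AP-1 genes were higher and 1 lower (median 0.33), 12 transcription factors higher and 6 lower (median 0.18), 23 rapid response genes higher and 4 lower (median 0.45), and 9 ERK route genes higher and 2 lower (median 0.26). In whole embryo 7.39% of all genes were called, 3.73% higher and 3.66% lower, with a median of -0.0037. Counts there were 2 AP-1 genes higher, 4 transcription factors higher and 3 lower, and 7 rapid response genes higher. No ERK route gene was called in limma, with 3 of 25 at an unadjusted p under 0.05 and 2 called with the replicate block. With that block 13 rapid response genes were higher and 2 lower. The block also raised the calls over all probe sets, from 2834 to 4807 in retina and from 1044 to 2525 in embryo. The rises in the lists were not tested against this wider rise.

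Among the AP-1 partners, atf3, a stress-induced family member, was higher in mutant retina by 1.77 ± 0.16 (adjusted p = 7.00e-08) and also in RPE-attached retina by 1.18 and in embryo by 0.95. jun, the founding Jun gene, was higher in the same tissues by 1.02, 1.11 and 0.64. fosl2, which encodes a Fos-related subunit, had differences of -1.44 ± 0.094 in mutant retina (adjusted p = 9.12e-10) and -0.77 in RPE-attached retina. In whole embryo it differed by 0.30 (adjusted p = 0.0638). Its genotype effect differed between retina and embryo by -1.73 (adjusted p = 6.66e-08), the same sense as for junba. Other AP-1 genes of the mutant retina thus moved both ways, with jun and atf3 opposite to junba.

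Among transcription factors outside AP-1, nr4a2b, an activity-induced orphan nuclear receptor, was lower, at -1.98 ± 0.14 in mutant retina (adjusted p = 1.83e-09), -1.67 with RPE and -0.49 in embryo. id2a, an inhibitor of basic helix-loop-helix factors, was lower, at -1.37 in retina (adjusted p = 7.82e-09) and -1.32 with RPE, with -0.06 in embryo (adjusted p = 0.930). npas4a, a factor induced by neuronal activity, was lower in retina at -0.50 (adjusted p = 0.0176) and in embryo at -0.74 (adjusted p = 0.00259), with 0.18 in RPE-attached retina (adjusted p = 0.309). The npas4a means of 5.06 in wild-type and 4.56 in mutant retina both lay under the low level. On the other side hes6, a helix-loop-helix factor of neurogenesis, was higher by 1.43 in retina, 1.42 with RPE and 1.28 in embryo. id1 was higher by 0.72, 1.19 and 0.49 in the same order, and id3 by 1.02 in retina (adjusted p = 0.00356).

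Of the rapid response genes, plk3, a stress-activated kinase, was higher in mutants by 1.56 in retina, 1.86 with RPE and 0.58 in embryo. pim1, a survival kinase, was higher by 0.98, 1.23 and 0.34 in that order, and mcl1b, a relative of BCL2 that blocks cell death, by 0.88 in retina and in RPE-attached retina. dusp2, a phosphatase that switches off MAP kinases, was lower, at -1.90 ± 0.15 in retina (adjusted p = 1.43e-08) and -1.32 with RPE, with -0.19 in embryo (adjusted p = 0.690). zfp36l1b, which promotes the decay of mRNAs, was lower in retina at -1.01 (adjusted p = 1.88e-05), with 0.10 in RPE-attached retina (adjusted p = 0.578). ccn2a, a secreted matrix protein, was lower in bare mutant retina at -0.72 (adjusted p = 0.00379) and higher in RPE-attached retina by 1.37 (adjusted p = 1.97e-06).

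On the ERK route, etv5b, an ETS factor induced by fibroblast growth factor signalling, was higher in mutants by 1.61 in retina and 1.90 with RPE, with 0.28 in embryo (adjusted p = 0.305). etv4, its relative, was higher by 0.55 in retina (adjusted p = 0.0155) and 0.46 with RPE. mknk1, a kinase that ERK activates, was higher by 1.04 in retina and 0.89 with RPE. mapk3, which encodes ERK1, was lower in retina at -0.36 (adjusted p = 0.0237) and higher by 0.60 with RPE (adjusted p = 0.000158).

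**Figure D4:**
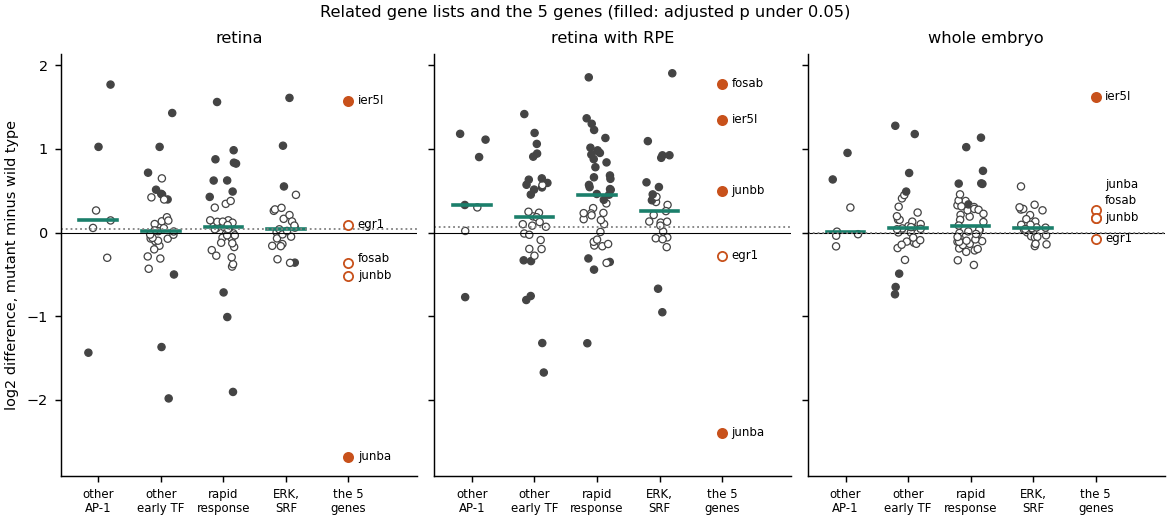
Mutant minus wild-type log2 difference (vertical axis) of the genes of 4 related lists and of junba, junbb, fosab, egr1 and ier5l (horizontal axis), each by its brightest probe set, in the 3 tissues; filled points have an adjusted p under 0.05, green bars are list medians, and the dotted line is the median of all genes. junba lies below every listed gene in retina at -2.68, and ier5l lies above every listed gene in whole embryo at 1.62.

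The genes with patterns closest to those of junba, fosab and ier5l were found by the root mean square difference of centred log2 values over the 18 arrays, among 8788 other genes. These values describe the arrays and were not tested. Closest to junba were cntn1b (0.33), a neuronal cell adhesion molecule, glra4b (0.40), a glycine receptor subunit, samsn1a (0.42), map7b (0.42), a microtubule-binding protein, and aanat2 (0.43), an enzyme of melatonin synthesis. Mutant minus wild-type retina was -2.28 for cntn1b, -1.82 for glra4b, -2.68 for samsn1a, -2.12 for map7b and -2.25 for aanat2. By Pearson correlation 4 of these 5 genes were named again.

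Closest to fosab were lgmn, a lysosomal protease, tpst1l, acaa2, wu:fj62d01 and tpst1, at 0.57 to 0.60, and 2 of these were named again by correlation. Their changes with RPE in wild type were smaller than the -1.98 of fosab, from -0.60 for wu:fj62d01 to -0.91 for acaa2. Closest to ier5l were igfbp1a (0.36), an insulin-like growth factor binding protein, baiap2a (0.38), cdkn1ca (0.40), an inhibitor of cell division kinases, nudt2 (0.40) and plk3 (0.40), and 1 was named again by correlation. Their mutant minus wild-type differences in embryo were smaller than the 1.62 of ier5l, from 0.52 for cdkn1ca to 0.97 for baiap2a. With RPE they ran from 0.76 for igfbp1a to 1.86 for plk3, where ier5l had 1.34. Group means of junbb and egr1 spanned 0.79 and 0.82, under the span of 1 set for this search, and no genes were named for them.

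**Figure D5:**
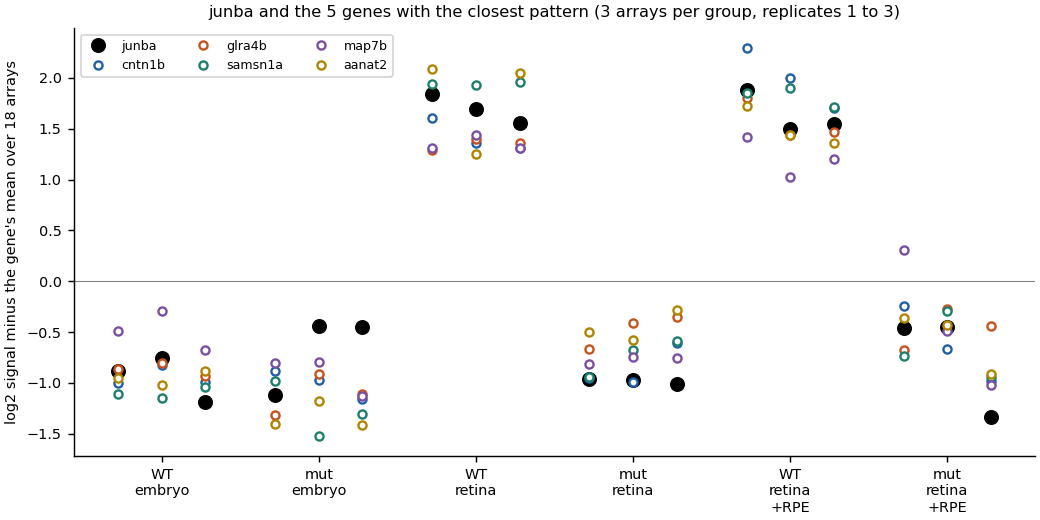
Log2 signal minus each gene's own mean over the 18 arrays (vertical axis) for junba and the 5 genes nearest to it, with the 3 arrays of each group side by side in replicate order (horizontal axis). All 6 genes lie above 1 in the wild-type eye groups and below 0.5 in all other groups.

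Genes beside the 5 on the chromosomes were checked in the gene table, 3 on each side, and 14 of these 30 were on the array. Of the 14, 1 was called in bare retina, 8 with RPE and 1 in embryo, where 19.6%, 49.5% and 7.39% of all genes were called, and those named here were chosen after their values were seen. ntmt1, a protein methyltransferase next to ier5l, was higher in mutants by 0.73 in retina (adjusted p = 0.000165), 0.44 with RPE (adjusted p = 0.00605) and 0.43 in embryo (adjusted p = 0.0353). ptpa, on the other side of ier5l, was at 0.04 in retina (adjusted p = 0.936), lower with RPE at -0.44 (adjusted p = 0.0397) and at -0.06 in embryo (adjusted p = 0.969). jdp2b, which encodes an AP-1 partner and lies 2 genes from fosab, was higher with RPE by 0.90 (adjusted p = 0.000349) and at 0.26 in bare retina (adjusted p = 0.392). prdx2, next to junba, was lower with RPE at -0.60 (adjusted p = 6.84e-05) and at -0.20 in bare retina (adjusted p = 0.210). rnaseh2a, 2 genes from junba, went the other way, higher with RPE by 0.66 (limma adjusted p = 0.000329) and at 0.23 in bare retina (adjusted p = 0.274).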

How the data were processed

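RNA from 18 pools was labelled by a two-cycle protocol and hybridized to Affymetrix zebrafish arrays. The authors background adjusted, normalized and summarised the probes with RMA, per the series design text, and deposited log2 values. The submitters' processing notes name RMA, affy and R 2.2.0. No genome build is named for the array annotation. Gene symbols came from the platform annotation (10795 probe sets with 1 symbol, 135 with several, 4572 with none), of which the gene table of assembly GRCz12tu changed 1 and did not hold 84. That table also gave neighbouring genes and shared chromosomes. Sequences of probes and promoters were not used here.

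Of 15617 probe sets, 115 controls were left out. A mean for each of 6 groups was fitted over all 18 arrays in limma 3.58.1 under R 4.3.3, with empirical Bayes moderation, and 9 contrasts were tested at an adjusted p under 0.05. The number of arrays limits the precision. A gene was read by its brightest probe set. The plots used matplotlib 3.10.9 in Python 3.11.15. The genes and lists were chosen with earlier results of these data known. Named from each related list were the 3 called genes with the largest change in each direction in mutant retina. Alternatives were the 0.001 threshold of the series design, a low filter, quantile and median scaling, trended moderation, array weights, fewer groups, each replicate left out, and replicate blocks.

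Same-numbered arrays of the embryo and retina groups deviated together (r of 0.29 to 0.60 over 18 pairs of arrays). The number was therefore also run as a block over these 12 arrays, though the labels do not say what a number shares. The replicate 1 arrays of these groups had hybridization controls of 10.35 to 10.60, against 9.36 to 9.78 on the others. For the 27 pairs with an RPE-attached group r was -0.20 to 0.16. A block over all 18 arrays was still run, as an alternative only.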

Additional observations from a re-analysis of the deposited data

Results flagged for a closer look

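Genotype effects differed between tissues for 4 probe sets, by the test of the difference itself. Retina minus embryo called 1 of the 9 probe sets, against 6.88% of all probe sets. RPE-attached minus bare retina called 3 of the 9, against 20.2% of all probe sets, 11.6% higher and 8.61% lower. For junba, mutant minus wild type was lower in retina than in whole embryo, a difference of -2.95 ± 0.29 (limma adjusted p = 1.33e-06), with -2.68 in retina and 0.27 in embryo. In every replicate number the retina difference lay below the embryo difference. For junbb the genotype effect was 1.02 ± 0.26 higher with RPE attached than in bare retina (adjusted p = 0.0102), with 0.50 and -0.52. For fosab the same contrast was 2.15 ± 0.54 for Dr.12986.1.A1_a_at (adjusted p = 0.00905) and 1.37 ± 0.36 for Dr.12986.1.A1_at (adjusted p = 0.0122). The remaining fosab probe sets gave -0.07 and -0.30, and neither was called. Hybridization controls were highest in mutant RPE-attached retina, and poly-A controls were highest in wild-type RPE-attached retina. In all other groups the poly-A controls lay under the reporter and tag controls. The mutant RPE-attached pools were the smallest. The part of array processing and pool size in these junbb and fosab differences was not tested.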

How the results depend on the processing

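Over the 9 probe sets and 9 comparisons, 1222 recomputed values kept their side of the threshold, 75 calls were lost and 26 gained. In 52 recomputed values the sign changed, all of differences that were not called. The eye differences of junba and the differences of ier5l in all 3 tissues were called under every alternative. At the 0.001 threshold the count of called probe sets was 3 for genotype in RPE-attached retina, 1 for RPE in wild type, 0 for RPE in mutants, 1 and 0 for retina against embryo in wild type and mutants, and 0 for the RPE difference of genotype effects, where the 0.05 threshold gave 6, 5, 3, 5, 3 and 3. Over all probe sets the stricter threshold called 21.5%, 7.28%, 14.6%, 36.7%, 41.4% and 2.74% in the same order. With array medians subtracted RPE in mutants had 0 calls, and with array weights 1. With the replicate block over the 12 arrays the retina minus embryo difference of effects had 2 calls in place of 1 (junbb joined junba). Over all probe sets that block raised the calls in retina from 2834 to 4807 and in embryo from 1044 to 2525, and it changed no other call of the 9 beyond those given above. Leaving out each replicate gave 2 to 3 calls for genotype in retina, 5 to 6 in RPE-attached retina and 1 to 1 in embryo. It gave 3 to 5 for RPE in wild type, 0 to 2 in mutants, 2 to 6 and 2 to 3 for retina against embryo in wild type and mutants, and 1 to 1 and 3 to 4 for the 2 differences of effects. The lower counts of the stricter threshold follow from its construction, those with a replicate left out come with fewer arrays, and the cause of the others was not tested. Counts of the related lists under these alternatives were added after the data were seen.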
